A study of Mus musculus with 96 samples.

Results

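Aminoacyl-tRNA synthetases, the enzymes that join each tRNA to its amino acid, were followed as 36 genes among the 54150 rows of the count table. Members were picked by gene name: the 16 names that end in 2 were taken as the mitochondrial set and the other 20 as the cytosolic set. Gars and Kars each encode the enzyme of both compartments and were counted with the cytosolic set. All 36 members passed the filter on low counts in each of the 6 model fits, so no member was left out of any comparison.

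Cytosolic synthetases charge the tRNAs used by cytosolic ribosomes, and several of them sit together in a multi-synthetase complex held by scaffold proteins. Mitochondrial synthetases are encoded in the nucleus, made in the cytosol and imported, and they serve the translation of the few respiratory chain subunits that mitochondrial DNA encodes. Uncharged tRNA is a known signal to the kinase GCN2, which starts the integrated stress response (ISR), and ATF4, the transcription factor made in that response, is known to act on many cytosolic synthetase genes.

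RNA was sequenced from 96 samples of C2C12, a mouse myoblast cell line that forms myotubes in low serum, in 35 groups, 26 with 3 samples and 9 with 2. The study asked which mitochondrial defects start the ISR and whether this depends on the state of the cell. Stable myoblast lines carried luciferase (called control myoblasts), LbNOX (a bacterial enzyme that oxidises NADH in the cytosol), mitoLbNOX (the same enzyme sent to the mitochondrial matrix) or NDI1 (a yeast NADH dehydrogenase that can stand in for complex I), delivered by lentivirus and induced with doxycycline at 300 ng/ml in all myoblasts, DMSO samples included. Groups received DMSO or 0.5 µM piericidin (complex I), 0.5 µM antimycin (complex III) or 1 µM oligomycin (ATP synthase) for 10 hr, in medium without pyruvate. NDI1 myoblasts received DMSO or piericidin only, with 2 samples in each group, and mitoLbNOX myoblasts received no oligomycin. Control and LbNOX myoblasts also received 20 µg/ml chloramphenicol, which blocks mitochondrial translation, or DMSO for 48 hr, with 2 samples in each group. The study describes the chloramphenicol treatment as given with uridine, which the medium of its 10 hr inhibitor treatments lacked. Myotubes after 4 days of low serum were not transduced, or received adenovirus for GFP (2 samples in each group) or for LbNOX with GFP, and untransduced myotubes also received 0.5 µM BAM15 (an uncoupler) or 5% oxygen, alone or with oligomycin, and oligomycin together with piericidin. Myotubes given 5% oxygen were moved to it the night before treatment and stayed in it while treated. Post-mitotic cells after 1 day of low serum, untransduced, received DMSO, piericidin or oligomycin. Sample labels number the samples of a group without saying that they came from separate cultures, so p-values measure only the spread between these samples.

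Libraries held about 6458300 to 15366700 counts each. The 6 genes that mark proliferating myoblasts, with Myod1 and Mki67 among them, summed to 924 to 952 CPM (each gene's count as a share of its library, scaled by TMM) in control myoblasts in DMSO and to 253 to 262 in DMSO myotubes, and 6 myotube genes, Ckm and Acta1 among them, to 17.1 to 21.3 and 11225 to 11456. Day 1 cells already held 10707 to 11210 CPM of the myotube genes. Defining adipocyte genes stayed at or under 1.01 CPM in sum and osteoblast genes at or under 5.03 CPM in these groups.

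In control myoblasts in DMSO, transcripts of the cytosolic set were the more abundant: their median was 58.7 CPM per kilobase of transcript, against 5.89 for the mitochondrial set. Gars (143.5 CPM per kb) and Nars (124) stood at the top of the cytosolic set and Vars (23.8) at its lower end. Mitochondrial levels ran from 1.74 CPM per kb for Vars2 to 97.2 for Lars2, and the next gene below Lars2, Tars2, had 19.9. Counting did not use strand, and part of the transcript sequence was shared with another gene for some members, so their values are uncertain. The share of 31-base stretches found elsewhere was 23.6% for Iars2, whose transcripts overlap those of Rab3gap2 on the opposite strand, 14.7% for Iars, 14.4% for Aars, 9.83% for Fars2, 8.53% for Cars2 and 8.46% for Farsb. Mars overlaps Ddit3, an ISR gene on the opposite strand, and Hars and Hars2 lie head to head and overlap, so reads from these partners could not be told apart in the overlaps.

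The promoter stretches shown were picked by the motif, not by how the transcripts moved: those of the 5 cytosolic genes with a match, Kars as one with the other motif searched, and Nars2 as one with neither. They are shown because ATF4 is known to bind a C/EBP-ATF response element whose core, searched on both strands as TGATGNAA, can be read in the sequence. RefSeq windows (build GRCm38.p6) from 250 bases before to 50 after the start site were matched for 13 of the 20 cytosolic and 14 of the 16 mitochondrial genes. No window was matched for Cars, Hars, Lars, Nars, Rars, Vars, Wars, Hars2 and Pars2. The core occurred in the windows of 5 of the 13 cytosolic genes (Aars, Gars, Iars, Tars and Yars), in 0 of the 14 mitochondrial windows and in 3.97% of all 32851 mouse windows. A second motif, the site of NRF1 (a factor known for nuclear genes of mitochondria), searched on both strands as GCGCA, any base and GCGC, was found in 3 of 13 cytosolic windows (Farsb, Kars and Tars), 2 of 14 mitochondrial windows (Iars2 and Mars2) and 4.6% of all windows. Only the Tars window held both motifs, and its matches did not overlap. A match is a description of letters and not evidence of binding. Each line gives 150 bases before to 30 after the start site in the direction of transcription, 5′ to 3′, with the motif in capitals (the C/EBP-ATF core, or its reverse complement, in Aars, Gars, Iars, Tars and Yars, NRF1 in Kars, and no match in Nars2).
Aars (chr8:111033692-111033871, plus strand): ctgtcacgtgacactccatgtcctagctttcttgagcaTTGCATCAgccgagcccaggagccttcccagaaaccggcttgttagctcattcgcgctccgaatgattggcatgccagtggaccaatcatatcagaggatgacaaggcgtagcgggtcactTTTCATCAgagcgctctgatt
Gars (chr6:55037851-55038030, plus strand): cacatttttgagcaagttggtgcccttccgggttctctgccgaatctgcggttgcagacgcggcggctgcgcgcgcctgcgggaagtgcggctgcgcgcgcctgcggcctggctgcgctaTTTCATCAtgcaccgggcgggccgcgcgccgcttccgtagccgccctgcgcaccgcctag
Iars (chr13:49681980-49682159, plus strand): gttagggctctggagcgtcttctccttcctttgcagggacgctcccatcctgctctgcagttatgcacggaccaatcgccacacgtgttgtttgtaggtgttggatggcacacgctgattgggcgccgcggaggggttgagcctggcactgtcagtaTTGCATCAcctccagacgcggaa
Tars (chr15:11399629-11399808, minus strand): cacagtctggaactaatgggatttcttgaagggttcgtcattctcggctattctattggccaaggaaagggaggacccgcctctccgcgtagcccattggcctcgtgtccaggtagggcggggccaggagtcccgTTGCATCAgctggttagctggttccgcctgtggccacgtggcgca
Yars (chr4:129189753-129189932, plus strand): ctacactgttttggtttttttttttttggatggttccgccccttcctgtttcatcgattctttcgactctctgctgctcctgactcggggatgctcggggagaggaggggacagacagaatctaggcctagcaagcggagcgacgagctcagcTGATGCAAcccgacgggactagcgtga
Kars (chr8:112011325-112011504, minus strand): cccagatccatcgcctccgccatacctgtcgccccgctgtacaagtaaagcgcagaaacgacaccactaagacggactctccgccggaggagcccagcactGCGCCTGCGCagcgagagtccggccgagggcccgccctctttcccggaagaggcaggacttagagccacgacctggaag
Nars2 (chr7:96951377-96951556, plus strand): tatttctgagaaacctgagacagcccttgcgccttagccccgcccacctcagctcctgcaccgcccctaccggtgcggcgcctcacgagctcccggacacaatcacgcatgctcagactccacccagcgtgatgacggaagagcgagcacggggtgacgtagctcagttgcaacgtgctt

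**Figure D1:**
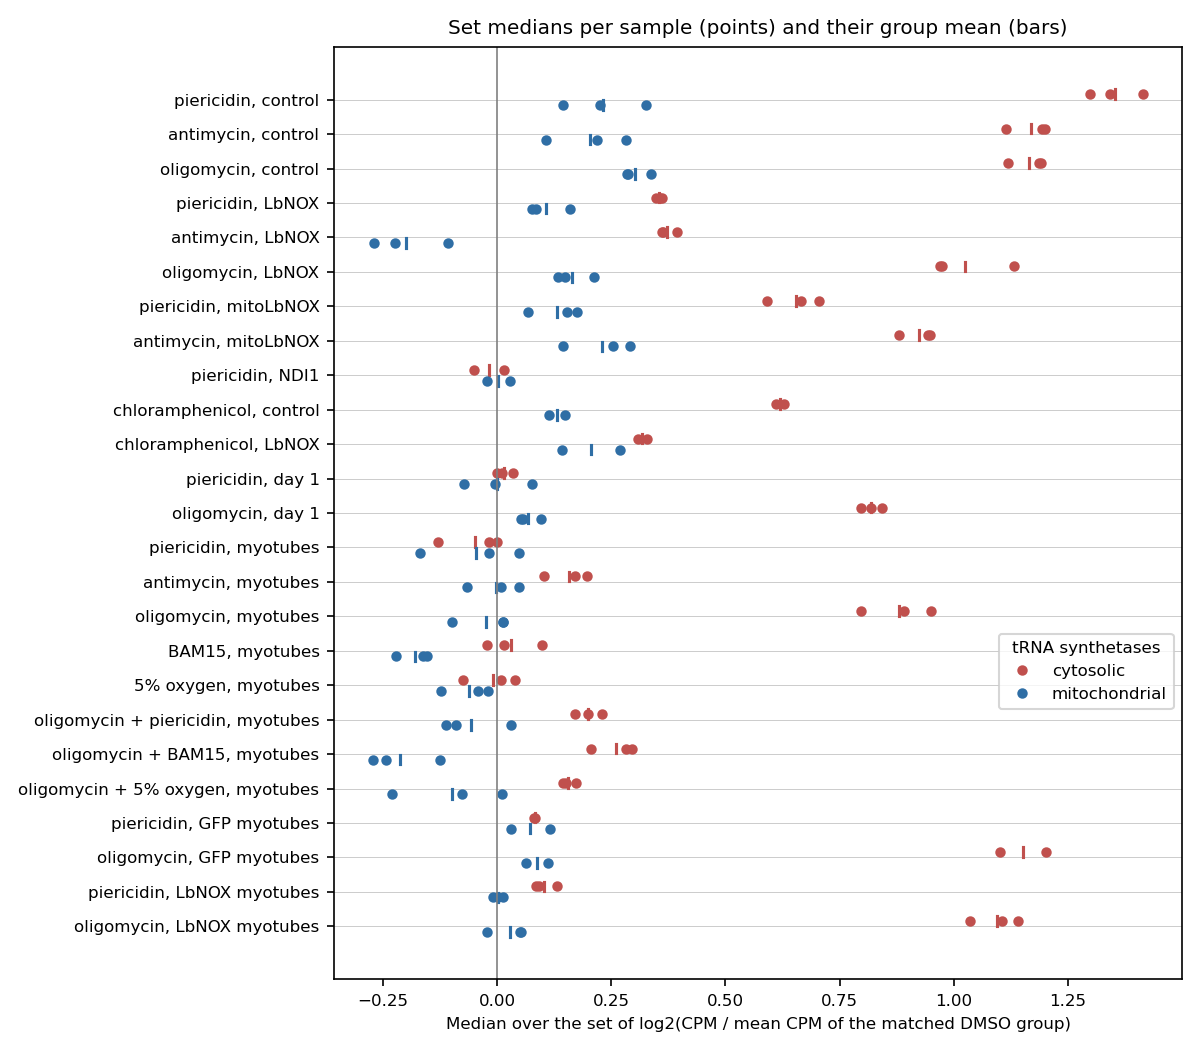
Each point is 1 sample, placed at the median over the 20 cytosolic or the 16 mitochondrial synthetases of log2(CPM divided by the mean CPM of the matched DMSO group), for 25 treated groups, and bars are group means. Cytosolic medians stand above mitochondrial ones in all treated myoblasts other than the NDI1 line, where both lie near 0, and in oligomycin-treated day 1 cells and myotubes.

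Inhibiting complex I, complex III or ATP synthase raised most cytosolic synthetases in control myoblasts, and fewer mitochondrial ones by smaller amounts. With piericidin, 17 of 20 cytosolic members were higher and 1 was lower, and 7 of 16 mitochondrial members were higher and 1 lower (edgeR, adjusted p under 0.05), where 61.7% (30.9% higher, 30.8% lower) of all genes tested were called. With antimycin the counts were the same, 17 and 1 against 7 and 1, with 63.2% (32.1% higher, 31.1% lower) of all genes called. With oligomycin they were 17 and 1 against 8 and 0, with 50.8% (24.5% higher, 26.3% lower) of all genes called. The median log2 fold changes with piericidin, antimycin and oligomycin were 1.42, 1.20 and 1.25 for the cytosolic set and 0.31, 0.36 and 0.38 for the mitochondrial set, while the median of all genes tested was between -0.01 and 0.00. The cytosolic share that rose stands well above the share of all genes that did, and the mitochondrial share stands above it by less. CPM are shares of a library, so fewer cells of a kind and less RNA per cell cannot be told apart in these values.

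Wars, the tryptophanyl-tRNA synthetase (ENSMUSG00000021266, chr12:108860030-108894174, minus strand), had 97.6, 107 and 112 CPM in the 3 DMSO samples of control myoblasts. It had 492, 530.4 and 518 CPM with piericidin, 343, 333 and 321 with antimycin and 472, 440.3 and 445 with oligomycin. Every treated sample was above every DMSO sample, and the antimycin samples formed the lowest of the treated groups. The log2 fold changes were 2.32 (SE 0.06) with piericidin, 1.69 (SE 0.06) with antimycin and 2.12 (SE 0.06) with oligomycin (edgeR, adjusted p = 1.19e-23, 2.45e-20 and 2.02e-22).

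Sars, which charges serine tRNAs (ENSMUSG00000068739, chr3:108424865-108445209, minus strand), rose from 214, 213 and 210.4 CPM in DMSO to 895, 960.1 and 955 with piericidin. It had 798, 781 and 766 CPM with antimycin and 729, 708 and 669 with oligomycin. Samples of 1 group lay within narrow ranges and the DMSO group overlapped no treated group. Sars rose by 2.18 (SE 0.04), 1.91 (SE 0.04) and 1.74 (SE 0.04) on the log2 scale (edgeR, adjusted p = 5.29e-28, 7.10e-27 and 1.86e-25).

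Nars, the asparaginyl-tRNA synthetase (ENSMUSG00000024587, chr18:64499647-64516652, minus strand), had 354, 339 and 325 CPM in DMSO and 1264, 1346 and 1303 with piericidin. It had 929, 949 and 926 CPM with antimycin and 946, 948 and 869 with oligomycin. Piericidin samples were the highest for this gene, and all treated samples exceeded the DMSO samples. The log2 fold changes were 1.98 (SE 0.04) with piericidin and 1.46 (SE 0.04) with oligomycin, with antimycin just above the latter (edgeR, adjusted p = 8.58e-26, 2.09e-22 and 4.99e-23).

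The cytosolic members next in order were alike in direction with each inhibitor. With piericidin, Aars rose by 1.84 (SE 0.10) on the log2 scale, Rars by 1.79 (SE 0.05), Gars by 1.62 (SE 0.04) and Eprs, the bifunctional enzyme for glutamate and proline, by 1.56 (SE 0.04). With antimycin, Aars had the largest change of the set at 1.94 (SE 0.10), ahead of Sars. Aars moves with plate position, as described below, and its lead is small, so this order is uncertain. With oligomycin, Rars had 1.75 (SE 0.05), Eprs 1.70 (SE 0.04) and Lars 1.55 (SE 0.06). Gars, which serves both compartments and whose promoter stretch above holds the C/EBP-ATF core, had 359, 333 and 332 CPM in DMSO, 990.0, 1033 and 1032 with piericidin, 878, 899.9 and 873 with antimycin and 1003, 947 and 941 with oligomycin. Kars, the other gene that serves both, did not move in this way. It had 197, 186 and 193 CPM in DMSO, 170.0, 195 and 174 with piericidin, 194, 202 and 187 with antimycin and 230.2, 232 and 225 with oligomycin. Only the oligomycin samples of Kars lay above all DMSO samples, with a log2 fold change of 0.27 (SE 0.05), against -0.05 (SE 0.06) with piericidin and 0.06 (SE 0.06) with antimycin, neither of which passed the test.

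A few cytosolic members stood apart from the rest. Qars, the glutaminyl-tRNA synthetase, fell with piericidin by 0.29 and with oligomycin by 0.37 on the log2 scale, with 121, 123 and 121 CPM in DMSO, 90.2, 102 and 98.2 with piericidin and 98.1, 95.1 and 86 with oligomycin. With antimycin Qars had 111, 114 and 109 CPM. Every sample treated with any of the 3 was below every DMSO sample, and the antimycin change of -0.09 (SE 0.05) did not pass the test. Dars, for aspartate, had 169, 153 and 154 CPM in DMSO and fell to 127, 119 and 121 with antimycin (-0.34, SE 0.06), and its values of -0.12 with piericidin and 0.03 with oligomycin did not pass. Mars, for methionine, rose with piericidin (0.82) and antimycin (0.76) and had 0.10 with oligomycin, which did not pass. Its overlap with Ddit3, which rose by 4.60, 5.23 and 4.08 with the 3 inhibitors, touches these values, and the part of Ddit3 reads in them was not tested.

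Phenylalanyl-tRNA synthetase is built from 2 proteins, and its genes differed in these data (both were singled out after their values were seen). Farsb, the beta subunit, rose by 0.65 (SE 0.05) with piericidin, 0.40 (SE 0.05) with antimycin and 0.98 (SE 0.05) with oligomycin on the log2 scale. Farsa, the alpha subunit, rose by 0.23 (SE 0.05), 0.22 (SE 0.05) and 0.21 (SE 0.05), the smallest of the cytosolic rises called with each inhibitor. The difference between the subunits was not tested.

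The 8 cytosolic members of the multi-synthetase complex (Dars, Eprs, Iars, Kars, Lars, Mars, Qars and Rars) held all of the cytosolic members that fell or did not pass the test. Of these 8, 5 rose and 1 fell with each of the 3 inhibitors, with median log2 fold changes of 0.90, 0.83 and 0.70. All 12 members outside the complex rose with each inhibitor, with medians of 1.52, 1.33 and 1.38. The 3 scaffold and partner genes of the complex, Aimp1, Aimp2 and Eef1e1, rose with all 3 inhibitors, by 0.30, 1.00 and 0.88 with piericidin. Of all genes tested 30.9%, 32.1% and 24.5% were higher and 30.8%, 31.1% and 26.3% lower with the 3 inhibitors. Lists of 8 and 12 genes were described by these counts and medians only.

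Mitochondrial members had a lower median level and smaller median changes, and fewer of them were called. Nars2, for asparagine, had the largest change of the set with piericidin and oligomycin: 12, 7.55 and 9.6 CPM in DMSO, 19.8, 21.1 and 24.7 with piericidin, 13.9, 13.8 and 17.3 with antimycin and 23.8, 20.3 and 20.3 with oligomycin. All treated samples were above all DMSO samples, and the log2 fold changes were 1.21 (SE 0.16), 0.67 (SE 0.16) and 1.17 (SE 0.16) (edgeR, adjusted p = 8.93e-08, 0.000646 and 2.48e-07). Nars2, whose promoter stretch above holds neither motif, was the mitochondrial counterpart of Nars, and both rose with each of the 3 inhibitors.

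Rars2, for arginine, moved in opposite directions with different inhibitors. It had 27.5, 27.2 and 27.8 CPM in DMSO, 29.6, 33.3 and 32.6 with piericidin, 17.3, 14.4 and 18.4 with antimycin and 60.4, 56.7 and 54.1 with oligomycin. Antimycin samples were all below and oligomycin samples all above the DMSO samples, with log2 fold changes of -0.69 (SE 0.10) and 1.07 (SE 0.10) (edgeR, adjusted p = 1.22e-06 and 9.32e-11), and 0.25 (SE 0.10) with piericidin. Antimycin against oligomycin, tested directly, gave -1.76 (SE 0.10) for Rars2, the largest difference of any member in that comparison, where 5 cytosolic members were higher, 9 lower, 1 mitochondrial member higher and 4 lower and 50% (26.1% higher, 23.9% lower) of all genes were called. Its cytosolic counterpart Rars rose with all 3. In the same comparison Mars (0.67), Aars (0.40), Qars (0.28), Sars (0.17), Yars (0.12) and Fars2 (0.38) were higher with antimycin, Lars (-0.65), Farsb (-0.58), Rars (-0.53) and Wars (-0.43) led the cytosolic members that were lower, and Vars2 (-0.56), Nars2 (-0.50) and Hars2 (-0.33) were lower with Rars2.

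Ears2, for glutamate, had 7.35, 11.6 and 9.6 CPM in DMSO, 12.1, 11.3 and 11.7 with piericidin, 19.4, 16.7 and 19.1 with antimycin and 17.9, 18.3 and 16.1 with oligomycin. Antimycin and oligomycin samples lay above all DMSO samples, while piericidin samples overlapped them, with log2 fold changes of 0.33 (SE 0.16), 0.98 (SE 0.16) and 0.88 (SE 0.16). Vars2, for valine, was the mitochondrial member that fell with piericidin: it had 8, 7.12 and 8.04 CPM in DMSO and 4.31, 4.12 and 5.19 with piericidin, and every treated sample was below every DMSO sample. Its change was -0.72 (SE 0.21), against -0.44 (SE 0.20) with antimycin and 0.11 (SE 0.20) with oligomycin, which did not pass.

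Other mitochondrial members that rose with all 3 inhibitors were Mars2 (0.81, 0.54 and 0.45 on the log2 scale), Tars2 (0.57, 0.77 and 0.58), Wars2 (0.40, 0.48 and 0.37) and Lars2 (0.60, 0.73 and 0.46). Yars2 rose with piericidin (0.87) and oligomycin (0.95), and Fars2 with antimycin (0.31). Lars2 and Yars2 are among the members that move with plate position, described below, so part of their change can go with position.

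**Figure D2:**
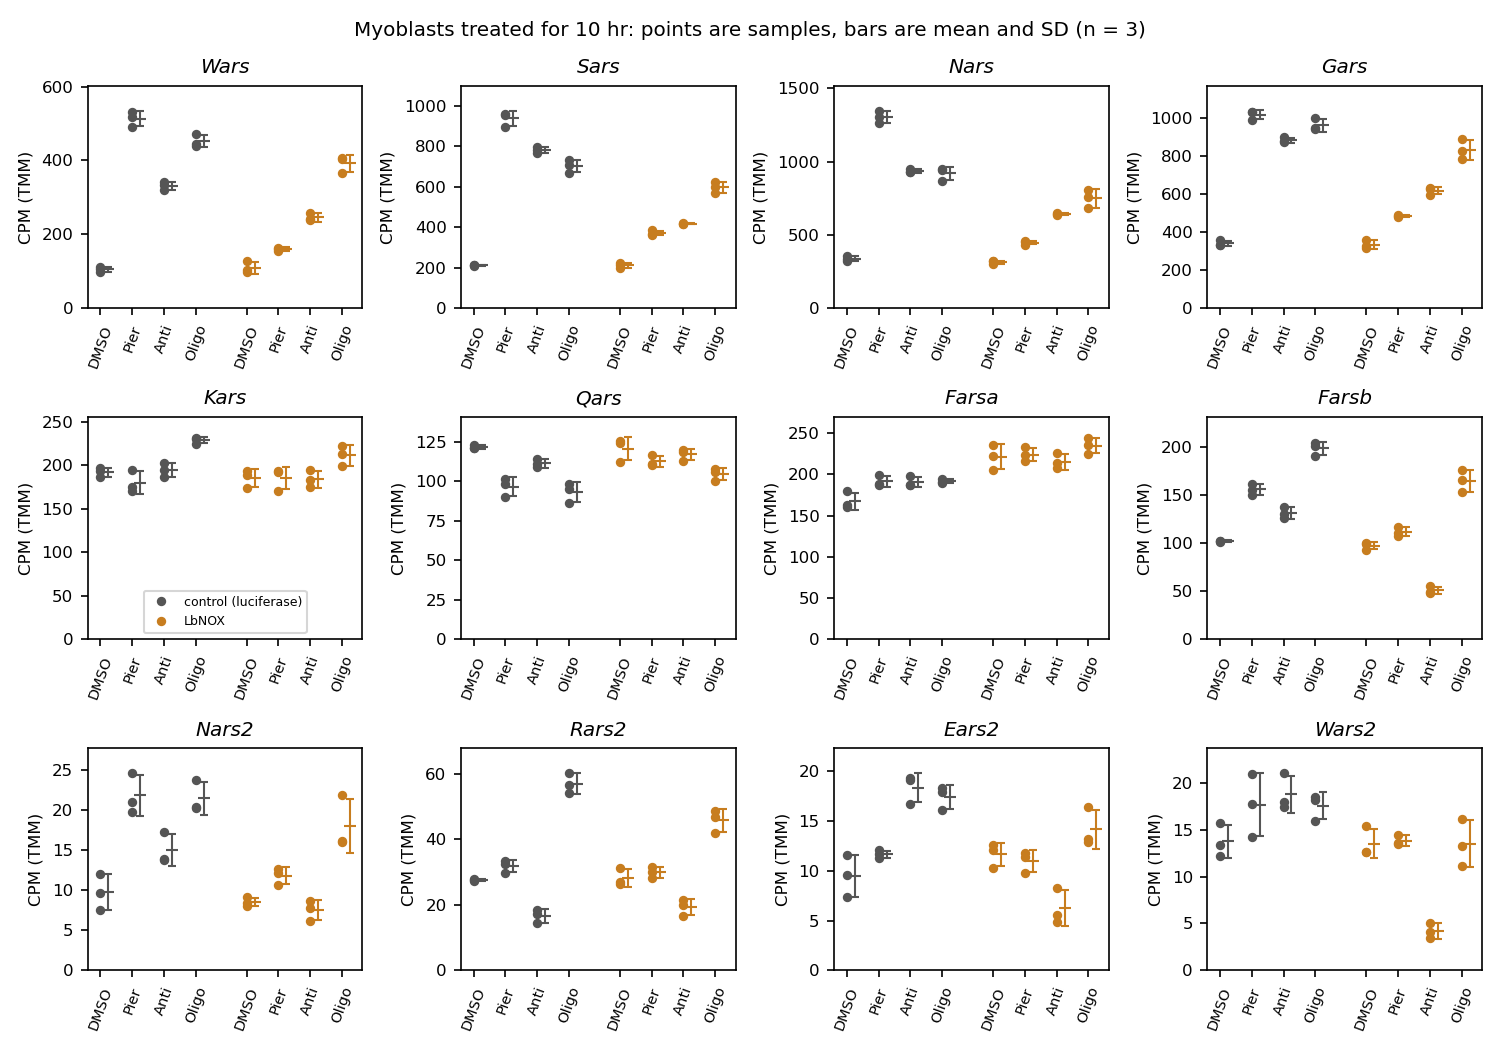
CPM (TMM-scaled, vertical axes) of 12 synthetases in control (grey) and LbNOX (orange) myoblasts given DMSO, piericidin, antimycin or oligomycin, as points for 3 samples with the group mean and SD. Wars, Sars, Nars and Gars rise in all control groups and much less with piericidin in LbNOX myoblasts, Kars, Qars and Farsa change little, and Wars2 and Ears2 are lowest in LbNOX myoblasts given antimycin.

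Antimycin raised cytosolic synthetases less than piericidin did. In the direct comparison 2 cytosolic members were higher with antimycin and 11 lower, and 2 mitochondrial members were higher and 3 lower, with 37.2% (19.3% higher, 17.9% lower) of all genes called. The cytosolic members lower with antimycin were led by Wars (-0.63, SE 0.06), Rars (-0.57, SE 0.04), Lars (-0.56, SE 0.06) and Nars (-0.48, SE 0.04), and those higher were Iars (0.20) and Qars (0.20). Among mitochondrial members Rars2 (-0.94), Nars2 (-0.55) and Mars2 (-0.27) were lower with antimycin, and Ears2 (0.65) and Fars2 (0.39) were higher.

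A set of 6 members varied among samples of the same group with the position of the sample on a plate, which was seen in the data and was not a planned comparison. The labels give each sample a code from A01 to H12, taken as the row and column of a plate with 96 wells. A plate score, the mean log2 CPM of 180 genes that are not members and whose level rose with distance from the edge of the plate, had a median of 4.39 in the 36 outer wells and 5.46 in the 60 inner wells. The 180 genes were picked by this rise in the same samples, so the difference between outer and inner wells follows from the choice. As a description over all 96 samples, each taken as its deviation from the group mean, the correlation with this score was 0.95 for Vars, 0.89 for Iars2, 0.86 for Lars2, 0.66 for Aars, 0.62 for Cars2 and 0.60 for Yars2, while the other 30 members lay between -0.50 and 0.08. Vars, for valine, had 62.7, 139 and 93.8 CPM in control myoblasts in DMSO and 337, 154 and 373 with piericidin, a spread that no other cytosolic member showed: the SD within groups was 0.64 on the log2 scale for Vars, 0.12 for Aars and at most 0.09 for the other 18. All 3 control DMSO samples came from outer wells, with a mean plate score of 4.45 ± 0.30 (SD, n = 3) against 5.35 ± 0.66 with piericidin, so position and treatment were partly mixed.

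With the plate score as a covariate, the counts in control myoblasts changed little: 17 cytosolic members higher and 1 lower with piericidin, 18 and 1 with antimycin and 18 and 1 with oligomycin, and 6 and 2, 7 and 2, and 8 and 1 mitochondrial members, where 60.1%, 60.1% and 52.4% of all genes were called. For Vars the change fell from 1.58, 1.69 and 1.37 to 0.44, 0.45 and 0.68. For Yars2 with piericidin it fell from 0.87 to 0.30 (edgeR, adjusted p = 0.242), which did not pass, and Cars2 became lower with piericidin at -0.61 (edgeR, adjusted p = 0.023). Aars kept most of its change, with 1.68 in place of 1.84. Without the 6 members, 15 of the remaining 18 cytosolic members rose and 1 fell with each inhibitor, with medians of 1.33, 1.18 and 1.13 for piericidin, antimycin and oligomycin, which puts antimycin above oligomycin where the whole set has 1.20 below 1.25. The remaining 12 mitochondrial members then had medians of 0.27, 0.17 and 0.26, in place of 0.31, 0.36 and 0.38.

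**Figure D3:**
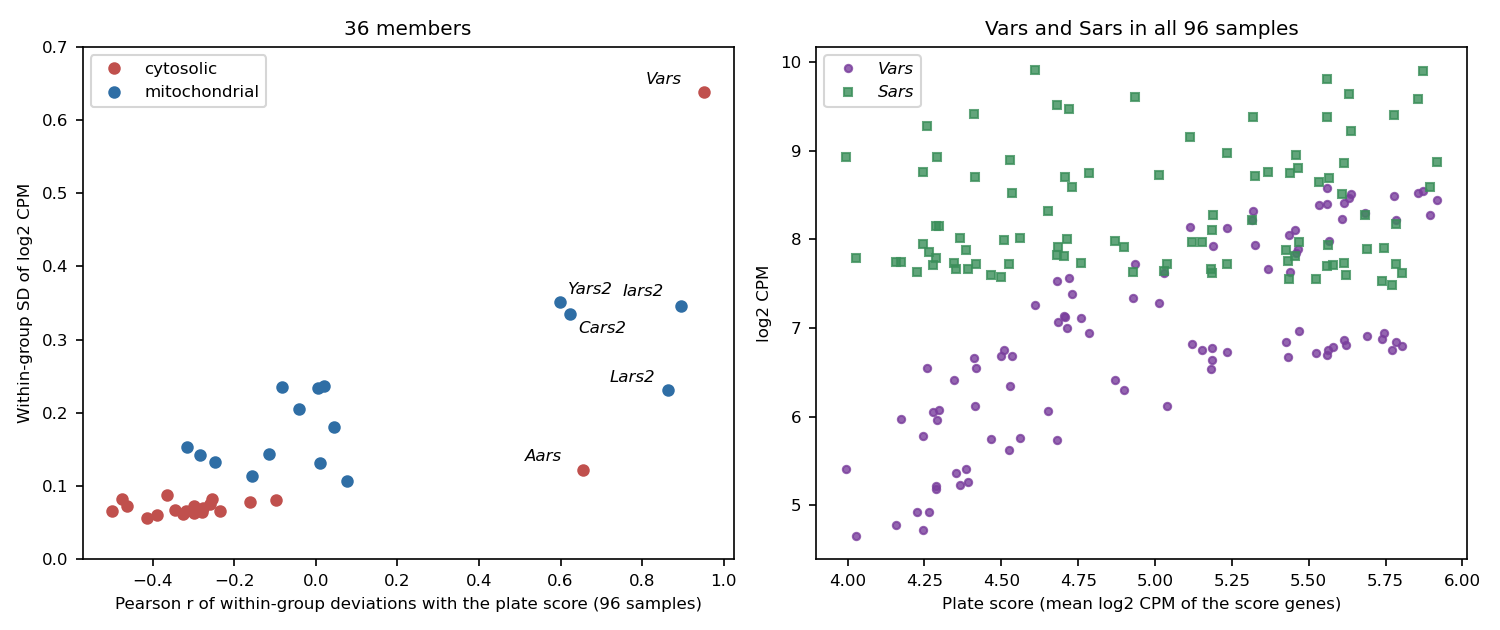
Left, each of the 36 synthetases by the correlation of its within-group deviations with the plate score (horizontal axis) and the SD of its log2 CPM within groups (vertical axis). Right, log2 CPM of Vars and Sars in all 96 samples against the plate score: Vars climbs with the score and Sars does not.

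Expressing an enzyme that oxidises NADH reduced the response to piericidin. In LbNOX myoblasts, 14 of 20 cytosolic members were higher with piericidin and 0 lower, with a median log2 fold change of 0.36, and 1 of 16 mitochondrial members was higher (Mars2, 0.29, SE 0.08), where 8.87% (5.01% higher, 3.86% lower) of all genes were called. DESeq2's Wald test called 0 mitochondrial members there. In mitoLbNOX myoblasts 15 cytosolic members were higher and 0 lower, with a median of 0.65, and 3 mitochondrial members (Nars2 0.47, Rars2 0.47 and Tars2 0.35) were higher, with 11.2% (6.37% higher, 4.82% lower) of all genes called. Dars (0.00), Farsa (0.01), Kars (0.10), Qars (-0.09) and Vars (0.89) did not pass in mitoLbNOX myoblasts. In NDI1 myoblasts 0 of 36 members were called by edgeR, with medians of -0.02 and 0.02 for the 2 sets. At an unadjusted p under 0.05 there were 4 cytosolic and 2 mitochondrial members, DESeq2's Wald test also called 0, and 0.00835% (0.00835% higher, 0% lower) of all genes, which is 1 gene, were called. Vars, at 1.46 (SE 0.60), had the highest value there without passing, and its groups also differed in plate score as described above, 4.50 ± 0.29 (SD, n = 2) in DMSO and 5.49 ± 0.42 (SD, n = 2) with piericidin.

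Wars showed the steps plainly. With piericidin it had 160.3, 164 and 154 CPM in LbNOX myoblasts, against 105, 128 and 97.4 in their DMSO group. In mitoLbNOX myoblasts it had 239, 252 and 229 against 115, 120.4 and 111, and in NDI1 myoblasts 134 and 130.5 against 123 and 130.2. The treated samples were above the DMSO samples in the LbNOX and mitoLbNOX lines and only narrowly so in the NDI1 line, where both groups hold 2 samples. The log2 fold changes were 0.54 (SE 0.06), 1.04 (SE 0.06) and 0.07 (SE 0.07), the last of which did not pass.

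The difference between lines was tested as an interaction, the log2 change in a line minus that in control myoblasts. A negative interaction can be a smaller rise, a larger fall or a rise turned into a fall, and a positive one the reverse. For piericidin, LbNOX gave 16 cytosolic members a negative and 1 a positive interaction (Qars, 0.20 (SE 0.08), whose fall in control myoblasts was smaller in LbNOX myoblasts), 3 mitochondrial members a negative and 1 a positive one (Aars2, 0.45, SE 0.17), and 44.3% (22.3% higher, 22% lower) of all genes called. The largest differences were those of Wars (-1.78, SE 0.09), Rars (-1.64, SE 0.06), Nars (-1.46, SE 0.06) and Sars (-1.36, SE 0.05), and Dars (0.07), Kars (0.06) and Vars (-0.71) did not pass. With mitoLbNOX 16 cytosolic members again had a negative and Qars a positive interaction (0.20), with 42.8% (21.5% higher, 21.4% lower) of all genes called, and of mitochondrial members Mars2 (-0.81) and Nars2 (-0.74) had a negative and Vars2 (1.09) a positive one. With NDI1 the counts of negative and positive interactions were 16 and 1 among cytosolic members (Qars, 0.21) and 3 and 0 among mitochondrial members (Nars2 -1.43, Mars2 -0.84 and Tars2 -0.77), with 42.7% (21.2% higher, 21.5% lower) called. Dars (0.12 and 0.02), Kars (0.16 and -0.06) and Vars (-0.69 and -0.12) passed with neither mitoLbNOX nor NDI1. Median interactions of the cytosolic set were -0.91 for LbNOX, -0.68 for mitoLbNOX and -1.35 for NDI1, and those of the mitochondrial set -0.14, -0.18 and -0.14. Without the 6 members that follow the plate, the mitochondrial medians were -0.26, -0.18 and -0.17. These comparisons share the control myoblast samples.

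In DMSO a few cytosolic members were higher in the LbNOX and mitoLbNOX lines, and more of them in the NDI1 line, than in control myoblasts. LbNOX raised 1 member, Farsa (0.40, SE 0.05), with 2.68% (1.3% higher, 1.38% lower) of all genes called, and mitoLbNOX raised Farsa (0.37, SE 0.05) and Sars (0.17, SE 0.04), with 1.77% (0.985% higher, 0.785% lower) called. Farsa, the alpha subunit of the phenylalanine enzyme, had 162, 179 and 161 CPM in control, 222, 236 and 206 in LbNOX, 213, 229.5 and 207 in mitoLbNOX and 223 and 229.8 in NDI1 myoblasts, and no sample of the 3 other lines overlapped the control samples. In NDI1 myoblasts 8 cytosolic members were higher and 0 lower: Farsa (0.44, SE 0.05), Sars (0.34, SE 0.04), Eprs (0.28, SE 0.04), Wars (0.26, SE 0.07), Lars (0.25), Gars (0.25), Iars (0.22) and Rars (0.20), with 4.61% (2.74% higher, 1.87% lower) of all genes called. Leaving out 1 sample at a time gave 4 to 7 calls in place of 8, with 4 without NDI1 DMSO replicate 2, and fitting only the groups compared gave 4. For mitoLbNOX, 1 in place of 2 was called without mitoLbNOX DMSO replicate 2. Of 10 ISR genes (Atf4, Ddit3, Atf3, Asns, Trib3, Chac1, Psat1, Phgdh, Sesn2 and Ppp1r15a), 8 were also higher in NDI1 myoblasts in DMSO, with a median of 0.41. Of mitochondrial members, edgeR called 0 in each of the 3 lines (1, 3 and 1 at an unadjusted p under 0.05 for LbNOX, mitoLbNOX and NDI1, and 0, 0 and 1 by DESeq2's Wald test).

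**Figure D4:**
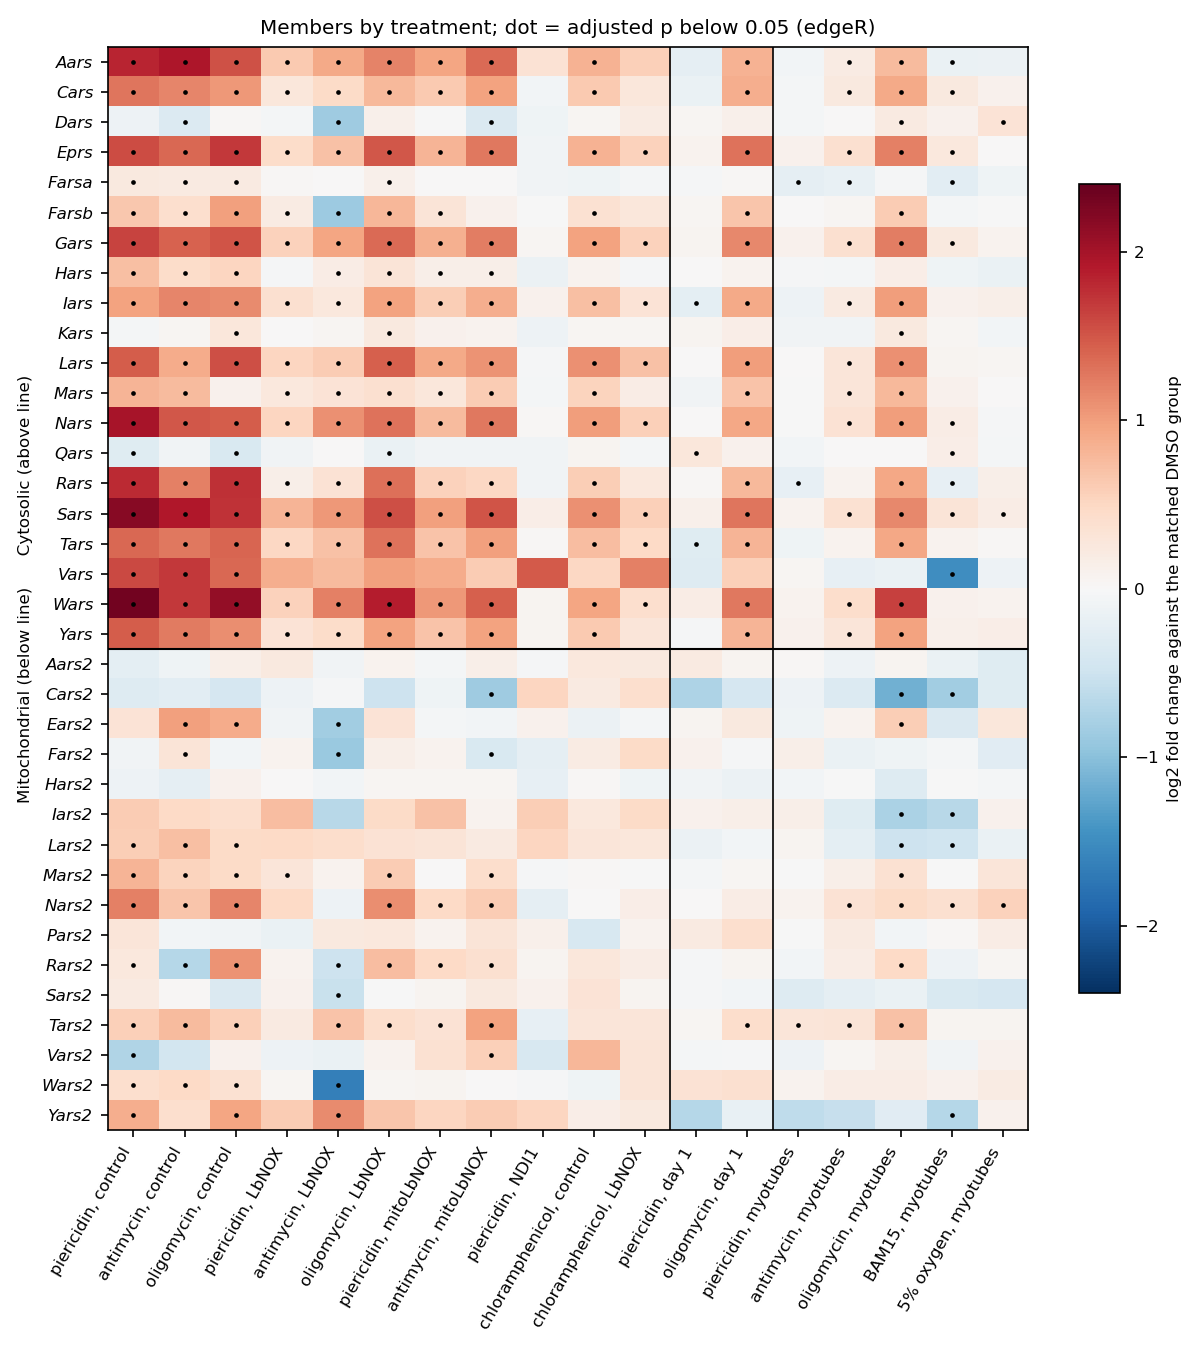
Heat map of log2 fold changes against matched DMSO (colour, from -2.4 to 2.4) for the 36 synthetases (rows, cytosolic above mitochondrial) in 18 treatments (columns), with a dot where the adjusted p from edgeR was under 0.05. Most cytosolic rows are red for the 3 inhibitors in control myoblasts and for oligomycin in each state, and pale, Vars apart, for piericidin in NDI1 myoblasts and myotubes, and the mitochondrial rows mix both signs.

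Oligomycin raised most cytosolic synthetases in LbNOX myoblasts as well. In LbNOX myoblasts 17 cytosolic members were higher and 1 lower (Qars, -0.16, SE 0.05), with a median of 0.98, and 4 mitochondrial members were higher (Nars2 1.12, Rars2 0.74, Mars2 0.62 and Tars2 0.43), with 35.2% (17.5% higher, 17.7% lower) of all genes called. Dars (0.13) and Vars (0.99) did not pass. Wars had 405, 366 and 406 CPM, against 105, 128 and 97.4 in DMSO, and every treated sample was higher. The interaction called 4 members, Rars (-0.42, SE 0.06), Eprs (-0.21, SE 0.06) and Sars (-0.20, SE 0.05) with a smaller and Mars (0.28, SE 0.06) with a larger change in LbNOX myoblasts, with 7.98% (3.8% higher, 4.18% lower) of all genes called, and no mitochondrial member (2 at an unadjusted p under 0.05, 0 by DESeq2's Wald test). With the plate score as a covariate the count was 11, with 10.1% of all genes called, and it was 2 without LbNOX DMSO replicate 2 and 7 without control DMSO replicate 2.

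Antimycin in LbNOX myoblasts split the members. Of cytosolic members 14 were higher and 2 lower, with a median of 0.45, and of mitochondrial members 2 were higher and 5 lower, with a median of -0.10, where 46.1% (23.3% higher, 22.9% lower) of all genes were called. Wars (1.22, SE 0.06), Nars (1.09, SE 0.04), Sars (1.04, SE 0.04), Gars (0.94, SE 0.04) and Aars (0.92, SE 0.10) rose, and Farsa (0.02), Kars (0.04), Qars (0.01) and Vars (0.77) did not pass the test. Vars belongs to the members that move with plate position.

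Farsb, the beta subunit, was one of the 2 cytosolic members that fell. It had 98.7, 100.1 and 93.2 CPM in LbNOX myoblasts in DMSO and 55.1, 48.6 and 49.1 with antimycin, against 102, 101 and 103 and 138, 129.9 and 126 in control myoblasts. Every LbNOX sample given antimycin was far below all DMSO samples, and every control sample given antimycin was above them. Its log2 fold change was -0.88 (SE 0.05) in LbNOX myoblasts and 0.40 (SE 0.05) in control myoblasts, an interaction of -1.28 (SE 0.07) (edgeR, adjusted p = 1.55e-15). Farsb overlaps Sgpp2 on the opposite strand, and the part of Sgpp2 reads in it was not tested.

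Dars, for aspartate, was the other: 159.6, 152 and 139 CPM in DMSO and 79.4, 80.7 and 81 with antimycin in LbNOX myoblasts, with no overlap and a change of -0.85 (SE 0.06). It fell in all 3 lines given antimycin, by 0.34 in control, 0.85 in LbNOX and 0.35 in mitoLbNOX myoblasts on the log2 scale. The interaction with LbNOX was -0.51 (SE 0.09).

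Among mitochondrial members the falls in LbNOX myoblasts were led by Wars2. Wars2, for tryptophan, had 15.3, 12.6 and 12.6 CPM in LbNOX myoblasts in DMSO and 4.09, 5.07 and 3.45 with antimycin, against 12.2, 15.7 and 13.3 and 21, 17.9 and 17.4 in control myoblasts. The LbNOX samples given antimycin were the lowest of these groups without overlap, while the control samples given antimycin were the highest. Its change of -1.63 (SE 0.16) in LbNOX myoblasts against 0.48 (SE 0.14) in control gave an interaction of -2.12 (SE 0.21) (edgeR, adjusted p = 1.09e-09), the largest of the 36 members. Ears2 had 10.3, 12.6 and 12.1 CPM in DMSO and 8.28, 4.84 and 5.58 with antimycin in LbNOX myoblasts, without overlap, a change of -0.83 (SE 0.17) and an interaction of -1.81 (SE 0.23). Fars2 (-0.88, SE 0.12), Sars2 (-0.53, SE 0.18) and Rars2 (-0.49, SE 0.10) also fell, and Yars2 (1.14, SE 0.29) and Tars2 (0.69, SE 0.08) rose. Wars2, Ears2 and Fars2 thus rose with antimycin in control myoblasts and fell in LbNOX myoblasts.

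That interaction was negative for 17 cytosolic members and positive for 0, and negative for 6 mitochondrial members and positive for 0, with medians of -0.53 and -0.19 and 51.5% (24.7% higher, 26.8% lower) of all genes called. After Farsb came Aars (-1.02), Iars (-0.92), Sars (-0.88) and Rars (-0.88), and Kars (-0.01), Qars (0.11) and Vars (-0.92) did not pass. Dars, among the 17, had a larger fall in LbNOX myoblasts, and Farsb turned from a rise to a fall. Beside Wars2, Ears2 and Fars2 (-1.20), the mitochondrial members were Iars2 (-1.15), Nars2 (-0.79) and Mars2 (-0.45).

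Sending the enzyme to mitochondria gave another picture. In mitoLbNOX myoblasts antimycin left 14 cytosolic members higher and 1 lower (Dars), with a median of 0.92, and 5 mitochondrial members higher and 2 lower, with 47.7% (24.8% higher, 22.9% lower) of all genes called. Sars (1.51), Wars (1.44) and Aars (1.35) led the cytosolic rises, and Farsa (0.00), Farsb (0.11), Kars (0.08), Qars (-0.09) and Vars (0.61) did not pass. Tars2 (0.97), Nars2 (0.60), Vars2 (0.57), Mars2 (0.43) and Rars2 (0.39) rose, and Cars2 (-0.86) and Fars2 (-0.37) fell. Rars2 had 27.7, 26.3 and 26.9 CPM in DMSO and 40.5, 30.3 and 34.2 with antimycin in this line, so that all treated samples were above all DMSO samples, the reverse of control myoblasts, with an interaction of 1.08 (SE 0.14) (edgeR, adjusted p = 7.22e-07). The interaction was negative for 13 cytosolic members and positive for 0, led by Rars (-0.73), Aars (-0.58) and Sars (-0.40), and 31.7% (15.4% higher, 16.3% lower) of all genes. Among mitochondrial members Vars2 (1.02) joined Rars2 with a positive interaction, and Ears2 (-1.04) and Fars2 (-0.69) had a negative one.

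**Figure D5:**
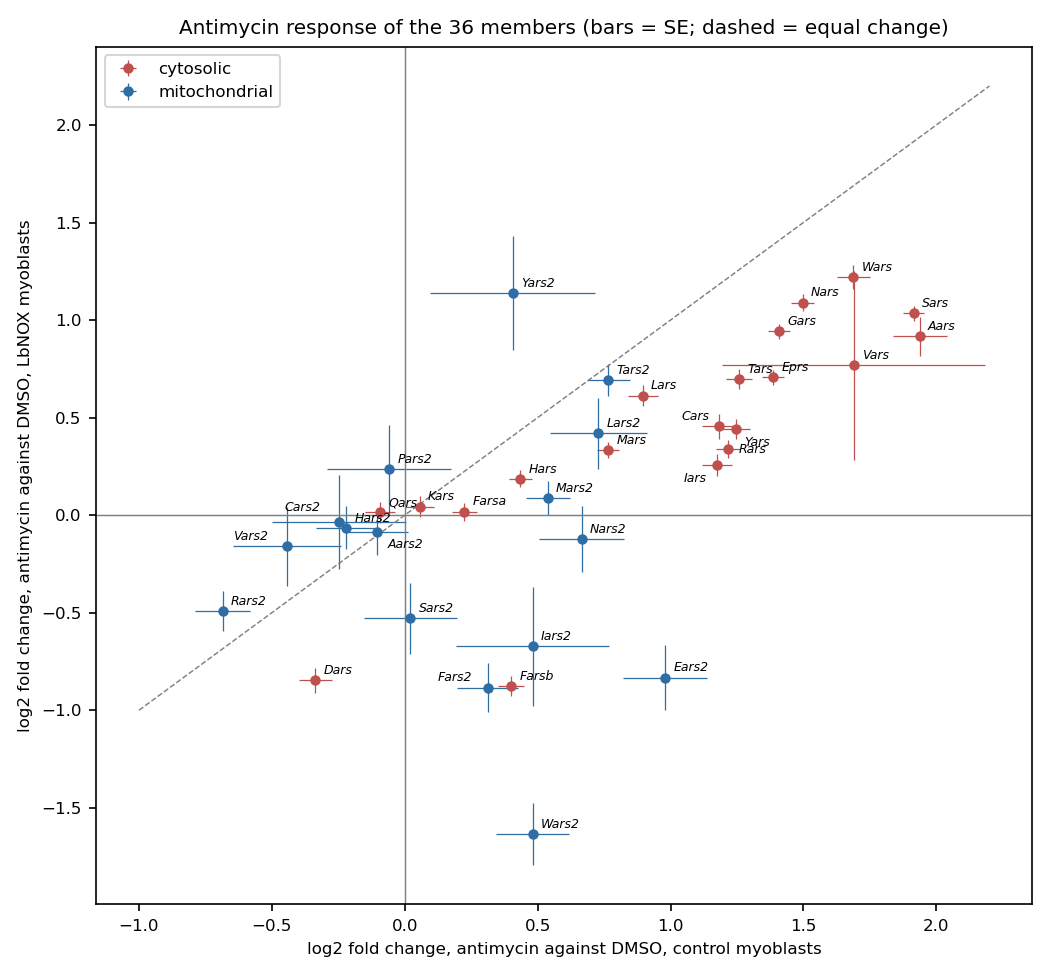
Log2 fold change with antimycin in control myoblasts (horizontal axis) and in LbNOX myoblasts (vertical axis) for each synthetase, with SE bars, and a dashed line where both are equal. Most cytosolic members lie below the line with both changes above 0, and Farsb, Wars2, Ears2 and Fars2 lie above 0 in control and below 0 in LbNOX myoblasts.

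Chloramphenicol, which stops mitochondrial ribosomes, raised cytosolic synthetases alone among the members called without the plate score as a covariate. After 48 hr, 14 of 20 cytosolic members were higher and 0 lower in control myoblasts, with a median of 0.62 and 8.45% (4.83% higher, 3.62% lower) of all genes called, and 0 of 16 mitochondrial members were called by edgeR (3 at an unadjusted p under 0.05, and 0 by DESeq2's Wald test, which gave 7 no adjusted p), with a median of 0.21. Without the 6 members that follow the plate the mitochondrial median was 0.12. Vars2 had 0.79 (SE 0.25) and did not pass (edgeR, adjusted p = 0.0919). With the plate score as a covariate 1 mitochondrial member was higher, with 11.4% of all genes called. Lars (1.10, SE 0.08), Sars (1.10, SE 0.05), Nars (1.00, SE 0.04), Gars (0.97, SE 0.05) and Wars (0.95, SE 0.06) led. Sars had 187 and 190.0 CPM in the 2 DMSO samples and 384 and 401 in the 2 chloramphenicol samples of control myoblasts, and 200.4 and 210.3 and 297 and 310.5 in LbNOX myoblasts. The groups did not overlap in either line, and the treated samples were higher in control myoblasts.

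In LbNOX myoblasts 8 cytosolic members were higher with chloramphenicol and 0 lower, with a median of 0.31 and 0.931% (0.675% higher, 0.256% lower) of all genes called, and 0 mitochondrial members were called by edgeR (2 at an unadjusted p under 0.05 and 0 by DESeq2's Wald test, which gave 10 no adjusted p). They were Lars (0.71), Sars (0.57), Nars (0.57), Gars (0.55), Eprs (0.54), Tars (0.48), Wars (0.40) and Iars (0.32), and without LbNOX chloramphenicol replicate 1 the count was 5. The interaction called 4 members, each with a smaller change in LbNOX myoblasts: Wars (-0.55, SE 0.08), Sars (-0.53, SE 0.07), Nars (-0.44, SE 0.06) and Gars (-0.42, SE 0.07), with 0.53% (0.0769% higher, 0.453% lower) of all genes called. No group here has more than 2 samples, and leaving out any 1 of the 8 libraries gave 0 to 2 calls in place of 4.

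Cells that had left the cell cycle held less of the cytosolic set before any inhibitor was given. Day 1 cells against control myoblasts, both in DMSO, had 0 cytosolic members higher and 18 lower, with a median of -0.45, and 4 mitochondrial members higher and 9 lower, with a median of -0.41 and 63.6% (31.3% higher, 32.3% lower) of all genes called. Hars (-1.01, SE 0.06), Cars (-0.66, SE 0.05), Farsa (-0.65, SE 0.05) and Rars (-0.61, SE 0.06) fell most after Vars (-1.25), and Aars (-0.11) and Wars (-0.11) did not pass. The mitochondrial members that were higher were Nars2 (1.09, SE 0.13), Lars2 (0.50, SE 0.18), Fars2 (0.42, SE 0.11) and Ears2 (0.34, SE 0.14), and Sars2 (-0.82, SE 0.21) fell most, while Rars2 (-0.06), Vars2 (-0.33) and Yars2 (-0.52) did not pass. Nars2 had 12, 7.55 and 9.6 CPM in myoblasts, 20.1, 19.9 and 22.3 in day 1 cells and 21.6, 19.3 and 19.3 in myotubes, without overlap between myoblasts and the later states. Control myoblasts also carried the luciferase vector and doxycycline, which the other cells did not, so state and vector cannot be told apart.

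Between day 1 and day 4, 12 of the 36 members differed, a share no higher than that of all genes. In myotubes against day 1 cells 4 cytosolic members were higher and 4 lower, and 3 mitochondrial members higher and 1 lower, with 35.6% (19.6% higher, 16% lower) of all genes called. The largest values among those called were those of Vars (1.37), Iars2 (1.01) and Lars2 (0.68), all 3 among the members that move with plate position, and day 1 DMSO samples were all from outer wells, with a plate score of 4.35 ± 0.12 (SD, n = 3) against 5.57 ± 0.05 (SD, n = 3) in DMSO myotubes. With the score as a covariate 3 and 1 cytosolic and 0 and 1 mitochondrial members were called, with 21.8% of all genes, and Vars was -0.18. Without the score, Qars (0.25), Kars (0.24), Eprs (0.24) and Aars2 (0.22) were higher in myotubes among the members that do not follow the plate. Yars (-0.31), Mars (-0.21), Wars (-0.21), Tars (-0.18) and Wars2 (-0.48) were lower. With the score no mitochondrial member was higher, Aars2 included, and 1 cytosolic member in place of 4 was lower.

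Piericidin gave cytosolic medians near 0 in cells that had left the cycle, 0.01 in day 1 cells and -0.02 in myotubes. In day 1 cells it left Qars higher (0.27, SE 0.05) and Tars (-0.29, SE 0.05) and Iars (-0.24, SE 0.06) lower, with 2.75% (1.39% higher, 1.36% lower) of all genes called, and edgeR called 0 mitochondrial members (2 at an unadjusted p under 0.05, 0 by DESeq2's Wald test, which gave 9 no adjusted p). In myotubes Farsa (-0.21, SE 0.05) and Rars (-0.20, SE 0.06) were lower and Tars2 (0.28, SE 0.09) was higher, with 8.99% (4.15% higher, 4.84% lower) of all genes called. Leaving out 1 sample at a time gave 0 to 1 calls in place of 3 in day 1 cells, whichever sample was left out, and 1 to 2 in place of 3 in myotubes, where fitting only the groups compared, or no count filter, gave 0. Wars had 89.5, 99.3 and 107 CPM in DMSO and 122, 109 and 105 with piericidin in day 1 cells, and 83.9, 84.5 and 86 and 90.7, 82.8 and 91.4 in myotubes, and the groups overlapped in both states. The difference from control myoblasts was tested in a fit of the 3 states, where the median interaction of all genes was 0.04 to 0.07. For piericidin, 17 cytosolic members had a negative interaction in myotubes and 1 a positive one (Qars, 0.27), and 17 a negative and 2 a positive one in day 1 cells (Qars 0.62 and Dars 0.22), with 46.5% (25.2% higher, 21.3% lower) and 46.6% (25.4% higher, 21.2% lower) of all genes called. Wars had the largest of these differences in both, -2.20 (SE 0.09) in myotubes and -2.09 (SE 0.09) in day 1 cells. The interaction was negative for 3 mitochondrial members in myotubes, led by Yars2 (-1.44), which follows the plate, and Nars2 (-1.09), and for 5 in day 1 cells, and positive for Aars2 in both (0.29 and 0.50) and for Vars2 in day 1 cells (0.73). With the plate score as a covariate 2 mitochondrial members in myotubes and 3 in day 1 cells had a negative interaction, with 43.1% and 42.6% of all genes called, and Yars2 was -0.88 and -0.94 (edgeR, adjusted p = 0.0636 and 0.0567), which did not pass. Kars (0.01 and 0.17) passed in neither state, and Dars (0.12) not in myotubes.

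Antimycin raised the cytosolic set in myotubes by small amounts. There 11 members were higher and 1 lower (Farsa, -0.17, SE 0.05), with a median of 0.20 and 12.9% (6.64% higher, 6.27% lower) of all genes called. Wars (0.42, SE 0.05), Eprs (0.39, SE 0.04), Gars (0.39, SE 0.05), Sars (0.36, SE 0.05) and Nars (0.34, SE 0.05) led, and Nars2 (0.34, SE 0.10) and Tars2 (0.30, SE 0.08) were the mitochondrial members called. The 14 calls became 9 to 11 with 1 sample left out at a time, with 9 without antimycin replicate 2 or DMSO replicate 1, and 9 without the count filter. Wars had 116, 116 and 104 CPM, above its DMSO samples. The interaction with state was negative for 17 cytosolic members and positive for 1 (Dars, 0.39), and negative for 5 mitochondrial members and positive for 1 (Rars2, 0.92, SE 0.14), both of which fell in control myoblasts, with 47.9% (25.4% higher, 22.5% lower) of all genes called. Vars (-1.84), Aars (-1.69) and Sars (-1.51) had the largest of these. Vars and Aars follow the plate, and with the plate score as a covariate Vars turned to 0.0492 (edgeR, adjusted p = 0.902) while Aars was -1.35 (edgeR, adjusted p = 8.67e-09). Kars (-0.08) and Qars (0.15) did not pass.

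Oligomycin raised the cytosolic set in every state. In day 1 cells 14 members were higher and 0 lower, with a median of 0.82 and 20.7% (10.6% higher, 10.1% lower) of all genes called, led by Eprs (1.31, SE 0.05), Sars (1.29, SE 0.04), Wars (1.26, SE 0.07) and Gars (1.15, SE 0.04), and 1 mitochondrial member was higher (Tars2, 0.42, SE 0.09). In myotubes 16 were higher and 0 lower, with a median of 0.92 and 33.3% (16.9% higher, 16.4% lower) of all genes called, led by Wars (1.64, SE 0.05), Gars (1.24, SE 0.05), Eprs (1.21, SE 0.05) and Sars (1.15, SE 0.05). Farsa (-0.04), Hars (0.15), Qars (0.00) and Vars (-0.16) did not pass. Kars (0.24, SE 0.06) and Dars (0.22, SE 0.05) were higher by small amounts. Of the 8 members of the multi-synthetase complex, 7 rose in myotubes, and of the 12 outside it, 9.

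Wars had 83.9, 84.5 and 86 CPM in DMSO myotubes and 264, 253 and 254 with oligomycin, and 242, 233 and 233 with oligomycin in day 1 cells, in each case far above DMSO without overlap. The change was smaller than in control myoblasts: the interaction was -0.47 (SE 0.08) in myotubes and -0.81 (SE 0.08) in day 1 cells. Over the set, 13 cytosolic members had a negative interaction in myotubes and 2 a positive one (Mars 0.68 and Qars 0.38, of which Qars fell in control myoblasts), with a median of -0.35 and 29% (15.8% higher, 13.2% lower) of all genes called, and 12 and 2 in day 1 cells, with a median of -0.34 and 24.9% (14.9% higher, 10.1% lower) called. Mars and Qars were again the members with a positive interaction in day 1 cells, at 0.63 and 0.52. Cars (-0.13), Dars (0.20), Iars (-0.13), Kars (-0.03) and Yars (-0.15) did not pass in myotubes. The interaction was negative for 6 mitochondrial members in myotubes, Yars2 (-1.23) and Iars2 (-1.16) first, both of which follow the plate, and for 4 in day 1 cells (Yars2 -1.10, Rars2 -0.97, Nars2 -0.96 and Ears2 -0.60). With the plate score as a covariate, 2 mitochondrial members in place of 6 had a negative interaction in myotubes and 3 in place of 4 in day 1 cells, and 18% in place of 29% of all genes were called in myotubes and 24.4% in place of 24.9% in day 1 cells.

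Mitochondrial members in oligomycin-treated myotubes went both ways. Tars2 (0.70, SE 0.08), Ears2 (0.59, SE 0.13), Rars2 (0.48, SE 0.10), Nars2 (0.47, SE 0.10) and Mars2 (0.37, SE 0.11) rose, and Cars2 (-1.16, SE 0.23), Iars2 (-0.76, SE 0.21) and Lars2 (-0.50, SE 0.12) fell, with a set median of 0.00. The 3 that fell are among the members that move with plate position, and the mean plate score was 4.56 ± 0.40 (SD, n = 3) with oligomycin against 5.57 ± 0.05 (SD, n = 3) with DMSO. With the score as a covariate Iars2 was -0.13 and Lars2 -0.20 (edgeR, adjusted p = 0.607 and 0.143), which did not pass, Cars2 was -0.60 (edgeR, adjusted p = 0.0243), and Vars was 1.07 (edgeR, adjusted p = 7.81e-06). In that fit 4 mitochondrial members were higher and 2 lower, with 23.7% of all genes called. The mitochondrial members that rose without the covariate do not follow the plate. Without the 6 members that do, the mitochondrial median was 0.16.

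The response to oligomycin in myotubes was reduced when piericidin, BAM15 or 5% oxygen was combined with it. Wars had 112, 106 and 120.0 CPM with oligomycin and piericidin, 105, 122 and 106 with oligomycin and BAM15 and 111, 109 and 109 with oligomycin at 5% oxygen, against 264, 253 and 254 with oligomycin alone. The 3 combinations lay in the same range, below every sample of oligomycin alone and above every DMSO sample. Against oligomycin alone Wars changed by -1.19 (SE 0.05), -1.19 (SE 0.05) and -1.21 (SE 0.05).

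Over the set, 17 cytosolic members were lower and 0 higher than with oligomycin alone for each of the 3 combinations, with medians of -0.61 for piericidin, -0.53 for BAM15 and -0.62 for 5% oxygen and 20.9% (8.46% higher, 12.4% lower), 26.1% (12% higher, 14.1% lower) and 33.3% (16.7% higher, 16.5% lower) of all genes called. After Wars the largest falls were those of Rars (-1.03), Gars (-0.88) and Eprs (-0.87) with piericidin, Rars (-1.05), Eprs (-0.68) and Gars (-0.68) with BAM15, and Eprs (-1.04), Gars (-0.88) and Tars (-0.85) at 5% oxygen. Qars (0.07, 0.05 and -0.06) and Vars (0.21, -0.36 and -0.06) passed in none of the 3, Hars (-0.19) not with piericidin, and Dars (-0.11 and 0.03) neither with BAM15 nor at 5% oxygen. Mitochondrial members were lower for 4, 3 and 2 genes, among them Tars2 (-0.57, -0.55 and -0.31) and Rars2 (-0.35, -0.49 and -0.49) each time, and Ears2 (-0.64 and -0.82) with piericidin and BAM15. Cars2 was higher each time (0.94, 0.69 and 0.82), and Iars2 (0.72) and Lars2 (0.40) at 5% oxygen, members that move with plate position.

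The interaction takes into account the change with each addition on its own. BAM15 alone left 6 cytosolic members higher and 4 lower and 1 mitochondrial member higher and 4 lower, with 25.4% (13.2% higher, 12.2% lower) of all genes called. The largest of these, Vars (-1.49), Cars2 (-0.84), Yars2 (-0.69), Iars2 (-0.67) and Lars2 (-0.48), all follow the plate score, which was 4.40 ± 0.25 (SD, n = 3) with BAM15. With the score as a covariate Vars turned to 0.0340 and Iars2 to 0.0448 (edgeR, adjusted p = 0.938 and 0.903), and 2 cytosolic members were higher, 2 lower and 0 mitochondrial members called, with 12.8% of all genes, a share like that of the members. Leaving out 1 sample at a time gave 8 to 14 calls in place of 15 for BAM15, with 8 without BAM15 replicate 2. Sars (0.32, SE 0.05) and Eprs (0.26, SE 0.04) were the largest of the other rises and Farsa (-0.25, SE 0.05) and Rars (-0.20, SE 0.06) of the other falls, Nars2 (0.38) was the mitochondrial member that was higher, and Aars (-0.16), which follows the plate, was lower. At 5% oxygen alone Dars (0.33, SE 0.05), Sars (0.17, SE 0.05) and Nars2 (0.55, SE 0.10) were higher and none lower, with 22.1% (12.3% higher, 9.78% lower) of all genes called, a larger share than that of the members. Nars2 had 29.1, 28.8 and 27.1 CPM against 21.6, 19.3 and 19.3 in DMSO, without overlap. Without replicate 1 at 5% oxygen 5 members in place of 3 were called. The change with oligomycin was smaller by interaction for 15 cytosolic members with piericidin, 16 with BAM15 and 16 at 5% oxygen and larger for 0, with 14.6% (5.8% higher, 8.77% lower), 18.6% (8.21% higher, 10.4% lower) and 17.4% (7.87% higher, 9.56% lower) of all genes called, and for Wars it was -1.27 (SE 0.08), -1.28 (SE 0.07) and -1.29 (SE 0.08). Farsa (0.04, -0.04 and -0.12), Hars (-0.16, -0.22 and -0.18), Qars (0.14, -0.11 and -0.02) and Vars (0.17, 1.13 and 0.06) passed in none of the 3, and Kars (-0.13) not with piericidin. Of mitochondrial members, Tars2 had a negative interaction in all 3 (-0.85, -0.62 and -0.37), Nars2 with BAM15 (-0.50) and at 5% oxygen (-0.66), and Rars2 at 5% oxygen (-0.54). Positive interactions were called for plate-following members that fell with oligomycin alone, Cars2 in all 3 (1.06, 1.53 and 1.12), Lars2 with BAM15 (0.58) and at 5% oxygen (0.57), and Iars2 with BAM15 (1.00), and with the plate score as a covariate 2, 0 and 1 members of the mitochondrial set had a positive interaction, with 13.5%, 10.9% and 15.8% of all genes called.

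No member differed between GFP and LbNOX myotubes in its response to oligomycin by the test of the difference. In GFP myotubes 17 cytosolic members were higher and 0 lower with oligomycin, with a median of 1.12 and 25.9% (13.8% higher, 12.1% lower) of all genes called, and in LbNOX myotubes 16 and 0, with a median of 1.12 and 32% (16.6% higher, 15.4% lower) called. Wars had 89.9 and 89.6 CPM in DMSO and 324 and 313 with oligomycin in GFP myotubes, and 92.1, 93.6 and 80.9 and 298, 286 and 309 in LbNOX myotubes, without overlap in either. Tars2 (0.79 and 0.73), Ears2 (0.73 and 0.67) and Rars2 (0.72 and 0.63) rose in both. Dars (0.15 and 0.08), Farsa (-0.05 and -0.08) and Qars (0.13 and -0.01) passed in neither, and Vars passed with GFP (1.58) and not with LbNOX (0.75). Nars2 rose in LbNOX myotubes (0.35, SE 0.10). Hars2 fell in GFP myotubes (-0.44, SE 0.14) and Cars2 in LbNOX myotubes (-0.62, SE 0.21). The interaction called 0 members and 0% (0% higher, 0% lower) of all genes by edgeR, with 1 cytosolic and 0 mitochondrial members at an unadjusted p under 0.05 and 0 by DESeq2's Wald test. For Wars the difference was -0.07 (SE 0.08) and for Sars -0.11 (SE 0.09), so differences of the size of these errors could not be seen with 2 samples in each GFP group. LbNOX against GFP in DMSO called 0 members and 0.0242% of all genes (3 cytosolic and 0 mitochondrial members at an unadjusted p under 0.05, and 0 by DESeq2's Wald test, which gave 14 mitochondrial members no adjusted p).

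Piericidin in transduced myotubes raised 3 cytosolic members in each arm, Wars (0.33, SE 0.06), Sars (0.28, SE 0.07) and Eprs (0.25, SE 0.06) with GFP and Wars (0.22, SE 0.05), Sars (0.20, SE 0.05) and Lars (0.16, SE 0.04) with LbNOX, with 3.09% (1.37% higher, 1.72% lower) and 6.78% (3.24% higher, 3.54% lower) of all genes called. Of mitochondrial members edgeR called 0 in both (1 and 4 at an unadjusted p under 0.05, and 0 by DESeq2's Wald test). These calls did not hold when only the groups compared were fitted, which gave 0 in each, and leaving out 1 sample at a time gave 0 to 3 in each, with 0 without DMSO replicate 1 or 2 or piericidin replicate 2 for GFP and without piericidin replicate 2 for LbNOX.

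Genes that handle tRNA, and cytosolic elongation factors, rose in control myoblasts along with the cytosolic set. Of the 4 tRNA handling genes (Xpot, which exports tRNA from the nucleus, Trnt1, which adds its CCA end, Elac2, which trims it, and Ssb, which binds its precursor), 4 rose with piericidin, 3 with antimycin and 4 with oligomycin in control myoblasts, with Xpot at 1.52 (SE 0.11), 1.46 (SE 0.11) and 1.83 (SE 0.11). All 5 cytosolic elongation factor genes (Eef1a1, Eef1b2, Eef1d, Eef1g and Eef2) rose with each inhibitor, by less, with Eef1a1 at 0.51 (SE 0.03), 0.59 (SE 0.03) and 0.32 (SE 0.03). The partners of the mitochondrial synthetases, genes of the amidotransferase that finishes glutaminyl-tRNA (Gatb, Gatc and Qrsl1), of initiator formylation (Mtfmt) and of mitochondrial translation factors, went both ways: of the 12 of 13 tested, 4 rose and 3 fell with piericidin, 2 and 5 with antimycin and 4 and 1 with oligomycin, with medians of 0.09, -0.13 and 0.17. Beside these 3 lists, of all genes tested in the same comparisons 30.9%, 32.1% and 24.5% were higher and 30.8%, 31.1% and 26.3% lower. Tufm, the mitochondrial elongation factor, had 0.09 with piericidin and 0.01 with antimycin, which did not pass, and fell with oligomycin (-0.33).

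All 10 ISR genes rose with each of the 3 inhibitors in control myoblasts, with medians of 3.12, 3.69 and 2.80 for piericidin, antimycin and oligomycin. Of all genes tested 30.9%, 32.1% and 24.5% were higher. Atf4 itself rose by 2.39 (SE 0.03), 2.78 (SE 0.03) and 1.66 (SE 0.03), and Asns, asparagine synthetase, by 2.17 (SE 0.05), 1.82 (SE 0.05) and 1.78 (SE 0.05). In LbNOX myoblasts given antimycin Atf4 fell (-0.51, SE 0.03) while 8 of the 10 ISR genes and 14 of the 20 cytosolic synthetases were higher. Of all genes tested there 23.3% were higher and 22.9% lower. In NDI1 myoblasts given piericidin the ISR genes had a median of 0.09, and in oligomycin-treated myotubes all 10 rose, with a median of 2.27, where 16.9% of all genes were higher. Myoblast markers moved at the same time, in both directions: of the 6, 4 were lower and 2 higher with piericidin and with antimycin, and 4 lower and 1 higher with oligomycin, where 30.8%, 31.1% and 26.3% of all genes were lower. Mki67 and Top2a, which dividing cells express, fell with each inhibitor, Mki67 by 0.79, 1.07 and 1.00 and Top2a by 0.38, 1.08 and 0.36 on the log2 scale, and Ccnb1, a cyclin of mitosis, had 0.18, -0.24 and 0.03, the last of which did not pass. Of the myogenic factors Pax7 had -1.82, -2.56 and -1.21, Myod1 -0.66, 0.27 and -0.85, and Myf5 rose with each, by 2.39, 3.62 and 0.53. Their part in the synthetase values was not tested.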

How the data were processed

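The authors deposited 1 table of estimated counts per gene for 96 C2C12 samples, made from polyA RNA by Smart-seq2 (not strand-specific) and paired 37-base reads, with kallisto 0.44 against Ensembl 93 transcripts of GRCm38.p6 plus the transgenes and summed per gene with tximport, both flow cells together and without normalization. Their values are whole numbers, and every sample column was mapped to a sample by its title. Kallisto shares reads among similar transcripts by estimation, and reads without strand cannot separate overlapping genes, so members with shared sequence are less certain.

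Counts were fitted per experiment with edgeR 4.0.16 (TMM scaling, quasi-likelihood F test, R 4.3.3), after dropping genes that in no condition of the fit reached 16 counts in all replicates, and p-values were adjusted by Benjamini-Hochberg over all genes of a comparison, with a threshold of 0.05. The SE of a log2 fold change was its size divided by the square root of F. Fits were: 37 myoblast samples (11981 genes), 8 chloramphenicol samples (11704), 27 untransduced myotube samples (12491), 15 transduced myotube samples (12397), 9 day 1 samples (11827), and 33 samples of the 3 states (12766). The steps were tested on simulated data. Alternatives were DESeq2 1.42.0, its size factors, no count filter, a fit of the compared groups only, a replicate block, an outer-well term and leaving out each sample. A covariate for the plate score was an alternative chosen once the data had been seen.

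The members and the gene lists were chosen with earlier results of these data known. For named members the rule was up to 8 cytosolic and 8 mitochondrial members with the largest change among those called, the called members that moved against their set's median, and those not called where these were 5 or fewer in a set, and fewer than 8 are named in many comparisons. The remaining members singled out (Farsa, Farsb, Wars2, Vars, Lars2, Iars2, Cars2 and Yars2 for per-sample values or plate position) were chosen after their values were seen. RefSeq promoter windows covered 27 of 36 members.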

Additional observations from a re-analysis of the deposited data

Results flagged for a closer look

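Results are listed here where the test of a difference between 2 cell states, lines or conditions called members, that is, where the same treatment gave different changes. For LbNOX against control myoblasts, the antimycin response differed for 23 of the 36 members by edgeR (51.5% of all genes), the piericidin response for 21 (44.3%), the oligomycin response for 4 (7.98%) and the chloramphenicol response for 4 (0.53%). For mitoLbNOX against control myoblasts edgeR called 20 for piericidin (42.8%) and 17 for antimycin (31.7%), and for NDI1 20 for piericidin (42.7%). For the oligomycin response in myotubes it called 17 with against without piericidin (14.6%), 21 with BAM15 (18.6%) and 21 at 5% oxygen (17.4%). Against control myoblasts the myotube response differed for 24 members given antimycin (47.9%), 22 given piericidin (46.5%) and 21 given oligomycin (29%), and the day 1 response for 26 with piericidin (46.6%) and 18 with oligomycin (24.9%). Percentages are the shares of all genes tested that were called in the same comparison, and several are large. Many of these comparisons share the control myoblast samples in DMSO, all 3 of which came from outer wells.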

How the results depend on the processing

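Over 760 called member results, 11380 values were computed under alternatives: 10624 stayed past the threshold in the same direction, 750 lost significance and 6 changed sign. The 6 arose with the plate score as a covariate, added after seeing the data, and involve members that follow the plate: Iars2 (0.0448) and Vars (0.0340) with BAM15 in myotubes, Vars in myotubes against day 1 cells (-0.18), Iars2 (0.0452) and Vars (0.0492) for antimycin in myotubes against myoblasts, and Vars (0.36) for oligomycin there. In the fit of the 9 day 1 samples, all from outer wells, an outer-well term could not be fitted.

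Counts of members called moved by over 1.5 times in the following. Without the count filter they were 4 in place of 0 for piericidin in NDI1 myoblasts, 2 for LbNOX in DMSO (1), 4 for mitoLbNOX in DMSO (2), 13 for chloramphenicol in LbNOX myoblasts (8), 7 for its interaction (4), 0 for piericidin (3), 9 for antimycin (14) and 9 for BAM15 (15) in myotubes, 5 for piericidin in GFP (3) and 5 in LbNOX myotubes (3), and 1 in place of 0 for LbNOX in DMSO and for its oligomycin interaction in myotubes. Fitting only the groups compared gave 1 for mitoLbNOX in DMSO, 4 for NDI1 in DMSO (8), 0 for piericidin in myotubes, in GFP and in LbNOX myotubes, and 9 for BAM15. DESeq2's Wald test gave 7 for oligomycin by LbNOX in myoblasts (4), 7 for chloramphenicol by LbNOX (4) and 5 for piericidin in GFP myotubes (3). An outer-well term gave 10 for oligomycin by LbNOX, 8 for BAM15 and 7 for myotubes against day 1 cells (12), and the plate score 11, 4 and 5, and 1 for piericidin in LbNOX myotubes.

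Same-numbered samples deviated together little on average (mean correlation from -0.04 to 0.05, with a lowest of -0.33), so the numbers were not taken as pairs. Samples that deviated most like those of their own number were 19 of 37 in the myoblast fit and 16 of 33 in the fit of the 3 states. In the chloramphenicol, myotube, transduced myotube and day 1 fits they were 2 of 8, 8 of 27, 0 of 15 and 3 of 9. A replicate block gave 1 member in place of 4 for chloramphenicol by LbNOX and moved no other count by over 1.5 times.

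Leaving out 1 sample at a time gave 1 to 2 members for mitoLbNOX in DMSO (1 without mitoLbNOX DMSO replicate 2), 4 to 7 for NDI1 in DMSO (4 without NDI1 DMSO replicate 2), 2 to 7 for oligomycin by LbNOX (2 without LbNOX DMSO replicate 2, 7 without control DMSO replicate 2), 5 to 8 for chloramphenicol in LbNOX myoblasts (5 without chloramphenicol replicate 1) and 0 to 2 for its interaction, whichever of the 8 samples was left out. In myotubes it gave 1 to 2 for piericidin (1 without DMSO replicate 1 or 2 or any piericidin sample), 9 to 11 for antimycin (9 without antimycin replicate 2 or DMSO replicate 1), 8 to 14 for BAM15 (8 without BAM15 replicate 2), 2 to 5 for 5% oxygen (5 without its replicate 1), 0 to 3 for piericidin with GFP (0 without DMSO replicate 1 or 2 or piericidin replicate 2) and 0 to 3 with LbNOX (0 without piericidin replicate 2, 1 without DMSO replicate 2 or 3 or piericidin replicate 3). For piericidin in day 1 cells it gave 0 to 1, whichever of the 6 was left out. Where a group was left with 1 sample, that sample was assumed to vary like the others. Library sizes limit the precision of the mitochondrial members, most of which are low.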
